A study of Bos taurus with 9 samples.

Results

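The genes described are those for the 2 chains of the type I interferon receptor (IFNAR1 and IFNAR2), the kinase JAK1 that is bound to the receptor, and 5 genes whose products restrain JAK-STAT signalling (SOCS2, SOCS3, CISH, PIAS1 and PTPN2). All probe sets to which the array annotation gives 1 of these 8 symbols alone were taken, which gave 11 of the 24016 probe sets tested and 8 of the 9155 genes named by them. SOCS3 had 2 probe sets, PTPN2 had 3 and the other genes had 1 each. Probe sets of 1 gene are lettered A, B and C from the brightest down. The samples were 9 co-cultures of stromal and epithelial cells, mixed 3 to 1, from the endometrium of Holstein/Polish Black and White cows slaughtered on days 2 to 5 of the oestrous cycle. For 6 h the cells received lysophosphatidic acid (LPA, an oleoyl form at 1e-06 M) plus IFNt, which is interferon tau at a dose read as 1000 antiviral units per unstated volume, or LPA alone, or phosphate-buffered saline as control. Each group had 3 arrays. Each array measured a pool of 3, and the labels give 9 cows in all, so if a pool held 3 different cows the pools share animals and are not all independent. All groups were in medium with albumin in place of serum. An arm with IFNt alone was not analysed here, so IFNt was measured only on top of LPA.

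Interferon tau is the pregnancy signal of the ruminant embryo and binds the same receptor as the other type I interferons. The receptor is a pair of chains, IFNAR1 and IFNAR2, which carry the kinases TYK2 and JAK1 on their inner side. Bound interferon brings the chains together, the kinases phosphorylate STAT2 and other STAT proteins, and with IRF9 these form a complex that binds the response elements of antiviral genes. Proteins of the SOCS family, including CISH, are made in response to JAK-STAT signalling and bind kinases or receptor chains, PIAS1 is a SUMO ligase that restrains STAT signalling in the nucleus, and PTPN2 is a phosphatase that removes phosphate from JAK1 and from STAT proteins. USP18, besides taking ISG15 off other proteins, sits on IFNAR2 and weakens its coupling to JAK1.

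Levels are log2 values after RMA normalization, so a difference of 1 is a doubling, and they are compared for 1 probe set between samples, never between probe sets. The label of the IFNt arrays was borne out by ISG15, which stood at 14.63, 14.42 and 14.62 on the LPA+IFNt arrays, against 8.73, 8.35 and 8.84 with LPA and 7.89, 7.94 and 7.97 in control. All 12 epithelial and all 11 stromal markers had a mean over the arrays above 2.80, the highest reading from 3 control probe sets that detect a bacterial trp RNA, as did 6 of 10 leukocyte markers and 0 of 6 endothelial markers. Of the leukocyte markers 1, CD53, was called higher with LPA+IFNt in both comparisons, and with the replicate number fitted as a block CD14 was called lower in both. That reading stands here for array background. Of the 11 probe sets, 9 lay above it on every array, and the 2 for SOCS3 lay below it on every array.

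None of the 11 probe sets passed the threshold of limma (adjusted p under 0.05 over all 24016 probe sets) in any of the comparisons. In LPA+IFNt against control 0 of 11 were called where 5.34% of all probe sets were, and 2 had an unadjusted p under 0.05, where 16.7% of all did. In LPA+IFNt against LPA 0 of 11 were called where 6.54% of all were, and 2 had an unadjusted p under 0.05, where 17.5% did. In LPA against control 0 of 11 were called where 0.0708% of all were, and 0 had an unadjusted p under 0.05, where 8.3% did. Arrays with the same replicate number deviated together from their group means, though the labels state no pairing. The number was therefore also fitted as a block, which compares arrays of equal number with each other. With the block 1 of 11 was called in LPA+IFNt against control (8.68% of all, 5.44% in the lower direction), 2 of 11 in LPA+IFNt against LPA (9.66% of all, 6.28% in the lower direction) and 0 of 11 in LPA against control (0.0458% of all). The calls with the block were all lower: the brightest PTPN2 probe set in both comparisons, and JAK1 against LPA. Groups did not overlap for 2 of 11 in LPA+IFNt against control (23.1% of all), for 1 of 11 in LPA+IFNt against LPA (18.7%) and for 0 of 11 in LPA against control (10%). With 1 probe set standing for a gene, the median difference of the 8 genes was 0.02 in LPA+IFNt against control, -0.06 in LPA+IFNt against LPA and 0.11 in LPA against control, beside 0.02, 0.02 and 0.002 over all probe sets. The 8 include SOCS3, which lay below background on every array. The comparisons share arrays in pairs, so a high or low group enters both differences it is part of.

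**Figure D1:**
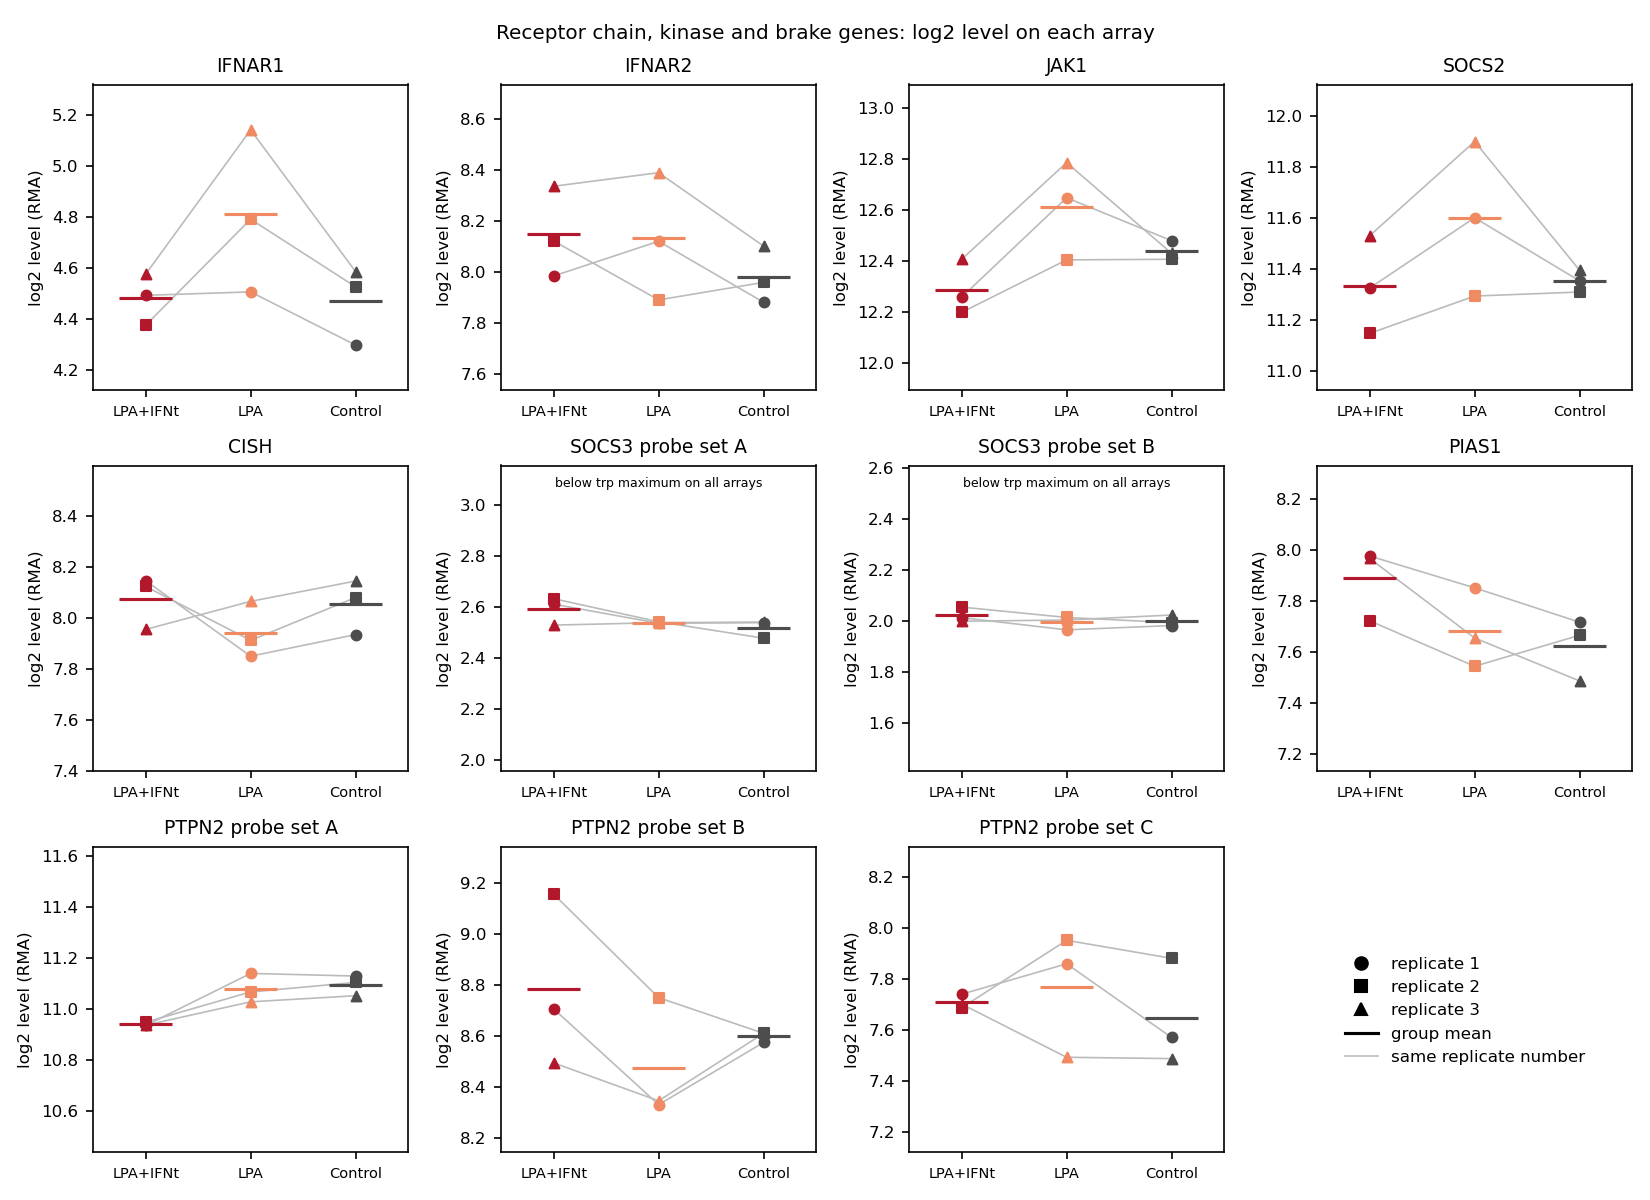
Log2 level of each of the 11 probe sets on the 9 arrays, with LPA+IFNt left, LPA in the middle and control right. Symbols are replicate numbers, thick bars are group means, grey lines join arrays of equal number and each panel spans the same range on its axis. The 3 LPA+IFNt arrays lie below the other 6 for PTPN2 probe set A, and LPA replicate 3 is the highest array for IFNAR1, IFNAR2, JAK1 and SOCS2.

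The receptor genes were not called in any comparison. IFNAR1, the gene of the chain that binds TYK2, stood at 4.49, 4.37 and 4.57 with LPA+IFNt, at 4.50, 4.79 and 5.14 with LPA and at 4.30, 4.52 and 4.58 in control. The LPA+IFNt arrays lay within the range of the control arrays, and LPA replicates 2 and 3 lay above all other arrays. The fold of LPA+IFNt over control was 1.01 (95% interval 0.784 to 1.30, limma adjusted p = 0.971), that of LPA+IFNt over LPA 0.795 (0.618 to 1.02, adjusted p = 0.337), and that of LPA over control 1.27 (0.987 to 1.63, adjusted p = 0.628). Without LPA replicate 3 the log2 difference of IFNAR1 between LPA and control was 0.18, and between LPA+IFNt and LPA it was -0.17. With each array left out in turn, these differences ran from 0.18 to 0.50 and from -0.49 to -0.17. The highest bound among the 95% intervals of the folds was 1.63 and the lowest was 0.618.

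IFNAR2, the gene of the chain that binds JAK1, stood at 7.98, 8.12 and 8.33 with LPA+IFNt, at 8.12, 7.89 and 8.39 with LPA and at 7.88, 7.96 and 8.10 in control. The groups overlapped in all comparisons, while each LPA+IFNt array lay above the control array of the same number, with log2 differences of 0.10, 0.16 and 0.23. All 3 pairs of equal number were higher for 25.6% of all probe sets in that comparison. The fold was 1.12 over control (95% interval 0.897 to 1.40, limma adjusted p = 0.560) and 1.01 over LPA (0.807 to 1.26, adjusted p = 0.958), and LPA over control gave 1.11 (0.889 to 1.39, adjusted p = 0.948). Without LPA+IFNt replicate 3 the log2 difference of IFNAR2 from control was 0.07, and without LPA replicate 3 that of LPA from control was 0.02. With each array left out in turn, these differences ran from 0.07 to 0.25 and from 0.02 to 0.27.

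IFNAR1 and IFNAR2 lie in a row of receptor genes: RefSeq's bovine gene table (assembly ARS-UCD2.0) has IFNGR2, IFNAR1, IL10RB and IFNAR2 next to each other, with no other protein-coding gene between them. IFNGR2, the second chain of the interferon gamma receptor, stood at 10.58, 10.38 and 10.72 with LPA+IFNt, at 11.04, 10.72 and 11.06 with LPA and at 10.78, 10.68 and 10.70 in control. The LPA+IFNt array was the lower in each pair of equal number with LPA, and IFNGR2 was lower than with LPA by a log2 difference of -0.38 in the fit with the block (limma adjusted p = 0.0311) and not called without it (adjusted p = 0.106). A second, dim probe set of IFNGR2 stood at 2.08 and 2.04 in those groups (adjusted p = 0.572), under the trp value. IL10RB, which serves the receptors of interleukin 10 and interferon lambda, had a log2 difference of -0.36 from LPA (adjusted p = 0.309, or 0.139 with the block). Without LPA replicate 2 both were called lower than with LPA, IFNGR2 by a log2 difference of -0.49 (adjusted p = 0.0252) and IL10RB of -0.56 (0.00848). Of 16 alternative fits, only 2 called IFNGR2 and 1 called IL10RB. Over these fits the difference ran from -0.49 to -0.17 for IFNGR2 and from -0.56 to -0.22 for IL10RB. The highest adjusted p was 0.304 and 0.634. IFNAR1 (-0.33), IL10RB and IFNGR2 thus had negative log2 differences from LPA and IFNAR2 (0.01) did not. From control, LPA+IFNt differed by 0.01 for IFNAR1, -0.16 for IFNGR2 (limma adjusted p = 0.516) and -0.20 for IL10RB (0.548), none called. LPA alone differed from control by 0.34, 0.22 and 0.16 for IFNAR1, IFNGR2 and IL10RB, none called. Whether the 4 genes differ from each other was not tested.

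JAK1, the gene of the kinase on IFNAR2, stood at 12.26, 12.20 and 12.41 with LPA+IFNt, at 12.65, 12.40 and 12.79 with LPA and at 12.48, 12.41 and 12.43 in control. LPA+IFNt replicate 3 (12.41) lay just above LPA replicate 2 (12.40), so these groups overlapped, but within each replicate number the LPA+IFNt array was the lower, with differences of -0.39, -0.21 and -0.38. The mean was 12.29 ± 0.11 with LPA+IFNt and 12.61 ± 0.19 with LPA (SD, n = 3 each), a fold of 0.798 (95% interval 0.683 to 0.933). That difference was not called without the block (limma adjusted p = 0.111) and was called with it (log2 difference -0.33, SE 0.07, adjusted p = 0.0455). Of the 9 fits with the block that each left out 1 array, 2 kept the call, those without control replicate 3 (adjusted p = 0.0308) and without LPA replicate 2 (0.0283), and the highest adjusted p was 0.180, without LPA replicate 1. With the block and arrays centred on spiked-in control transcripts the difference was -0.30 (adjusted p = 0.0729). JAK1 was not called against control, at 0.901 of the control level with LPA+IFNt (0.771 to 1.05, adjusted p = 0.488) and 1.13 times with LPA (0.965 to 1.32, adjusted p = 0.746). The log2 difference of JAK1 between LPA and control was 0.28 without LPA replicate 2 and 0.09 without LPA replicate 3.

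Some markers of stroma were called lower with LPA+IFNt. The mean of the 11 stromal markers was 11.13 to 11.17 on the LPA+IFNt arrays, 11.39 to 11.59 on the LPA arrays and 11.26 to 11.38 on the control arrays, and 5 of the 11 were called lower in LPA+IFNt against LPA (4.16% of all genes were, by the brightest probe set) and 3 of the 11 against control (3.13%). With the block these counts were 4 and 3, as COL1A2 lost its call against LPA (adjusted p = 0.0609 by limma). Against control PDGFRA, PDGFRB and POSTN had log2 differences of 0.06, 0.05 and 0.04 that were not called. The mean of the 12 epithelial markers was 10.70 to 10.83, 10.71 to 10.80 and 10.67 to 10.82 in the same groups, with 1 called lower against LPA and 1 higher against control. With the block 1 was lower and 2 were higher against LPA (MUC1 and KRT18), and 2 were higher against control (MUC1 and CDH1). The mean of the 6 smooth muscle and pericyte markers, 5 of them above the trp value, was 6.37 to 6.57, 6.84 to 7.09 and 6.58 to 6.86, with 1 called lower against LPA (ACTA2), or 3 with the block (DES and CNN1 besides). The part of the stromal markers in the JAK1 and PTPN2 differences was not tested. In mixed cultures of this kind fewer cells of a type and less RNA per cell cannot be told apart.

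Of the SOCS family genes among the 8, SOCS2 and CISH lay above array background on every array and SOCS3 lay below it. SOCS2, known as a brake on growth hormone signalling, stood at 11.32, 11.15 and 11.53 with LPA+IFNt, at 11.60, 11.29 and 11.90 with LPA and at 11.35, 11.31 and 11.39 in control. Replicate 3 was the highest and replicate 2 the lowest array in every group. Within each replicate number SOCS2 was lower with LPA+IFNt than with LPA, with differences of -0.28, -0.15 and -0.37, yet the difference was not called (fold 0.833, 95% interval 0.650 to 1.07, limma adjusted p = 0.478, or 0.169 with the block). Against control the fold was 0.987 with LPA+IFNt (0.771 to 1.26, adjusted p = 0.950) and 1.19 with LPA (0.926 to 1.52, adjusted p = 0.798). The log2 difference of SOCS2 between LPA+IFNt and LPA was -0.42 without LPA replicate 2, -0.11 without LPA replicate 3 and -0.17 without LPA+IFNt replicate 2, where it was -0.26 with all arrays. Between LPA and control it was 0.40 and 0.09 without LPA replicates 2 and 3. The spread of SOCS2 was wider in the treated cells than in control: the SD was 0.19 with LPA+IFNt and 0.30 with LPA, beside 0.04 in control (n = 3 each), and that difference in spread was not tested.

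CISH, the founding member of the SOCS family and a target of STAT5, stood at 8.14, 8.12 and 7.95 with LPA+IFNt, at 7.85, 7.91 and 8.06 with LPA and at 7.93, 8.08 and 8.14 in control. The groups overlapped, and the whole range over the 9 arrays was 0.30. The fold was 1.02 for LPA+IFNt over control (95% interval 0.890 to 1.16, limma adjusted p = 0.885), 1.10 for LPA+IFNt over LPA (0.962 to 1.25, adjusted p = 0.509) and 0.926 for LPA over control (0.812 to 1.06, adjusted p = 0.871). The highest bound among these intervals was 1.25.

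SOCS3, which binds JAK1 and the receptor chain gp130, gave no usable level. Its brighter probe set read 2.53 to 2.63 with LPA+IFNt, 2.54 on all LPA arrays and 2.48 to 2.54 in control, and the dimmer one read 2.00 to 2.06, 1.97 to 2.02 and 1.98 to 2.03. All these values lay under the highest trp value of 2.80, so no level or fold is given for SOCS3.

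PIAS1, the gene of that SUMO ligase, stood at 7.98, 7.72 and 7.97 with LPA+IFNt, at 7.85, 7.54 and 7.65 with LPA and at 7.72, 7.66 and 7.49 in control. The LPA+IFNt arrays all lay above the control arrays, though LPA+IFNt replicate 2 and control replicate 1 both round to 7.72, and such groups without overlap were found, in the higher direction, for 10.2% of all probe sets. The mean was 7.89 ± 0.14 with LPA+IFNt and 7.62 ± 0.12 in control (SD, n = 3 each), a fold of 1.20 (95% interval 1.01 to 1.42) that was not called (limma adjusted p = 0.252, or 0.130 with the block). LPA+IFNt over LPA gave 1.15 (0.973 to 1.37, adjusted p = 0.394), with the LPA+IFNt array the higher in each pair of equal number, and LPA over control gave 1.04 (0.880 to 1.24).

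PTPN2, the gene of the T-cell protein tyrosine phosphatase, was measured by 3 probe sets whose differences from control did not have the same sign. Whether the probe sets differ from each other was not tested. Probe set A, the brightest, stood at 10.94, 10.95 and 10.94 with LPA+IFNt, at 11.14, 11.07 and 11.03 with LPA and at 11.13, 11.10 and 11.05 in control. The 3 LPA+IFNt arrays were nearly equal and lay below all 6 other arrays. Groups without overlap in the lower direction were found for 12.8% of all probe sets against control and 11.3% against LPA. The mean was 10.94 ± 0.01 with LPA+IFNt, 11.08 ± 0.06 with LPA and 11.09 ± 0.04 in control (SD, n = 3 each).

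The fold of probe set A was 0.898 for LPA+IFNt over control (95% interval 0.847 to 0.952) and 0.909 over LPA (0.857 to 0.963). Neither was called without the block (limma adjusted p = 0.0549 and 0.0731), both were called with it (0.0356 and 0.0464), and 0 of the 9 fits with the block on 8 arrays kept either call (adjusted p 0.0556 to 0.141 against control and 0.0695 to 0.193 against LPA). With arrays centred on their spiked-in control transcripts the log2 difference of PTPN2 probe set A from control was -0.09 (adjusted p = 0.722, or 0.574 with the block), where it was -0.16 without that centring, and from LPA it was -0.11 (adjusted p = 0.881, or 0.681 with the block). LPA over control was 0.988 (0.932 to 1.05).

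The other probe sets of PTPN2 did not show that difference. Probe set B stood at 8.70, 9.15 and 8.49 with LPA+IFNt, at 8.33, 8.75 and 8.34 with LPA and at 8.57, 8.61 and 8.61 in control, so it was higher with LPA+IFNt than with LPA in each pair of equal number. Its fold was 1.14 over control (95% interval 0.858 to 1.51, limma adjusted p = 0.593) and 1.24 over LPA (0.934 to 1.64, adjusted p = 0.460), and without LPA+IFNt replicate 2 its log2 difference was 0.002 from control and 0.12 from LPA. Probe set C stood at 7.74, 7.69 and 7.70 with LPA+IFNt, at 7.86, 7.95 and 7.49 with LPA and at 7.57, 7.88 and 7.49 in control, with folds of 1.04 over control (0.838 to 1.30) and 0.960 over LPA (0.771 to 1.20). With the 3 probe sets averaged, PTPN2 had a log2 difference of 0.03 from control (adjusted p = 0.841) and 0.04 from LPA. Which transcripts of PTPN2 each probe set detects is not given in the sources used here.

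**Figure D2:**
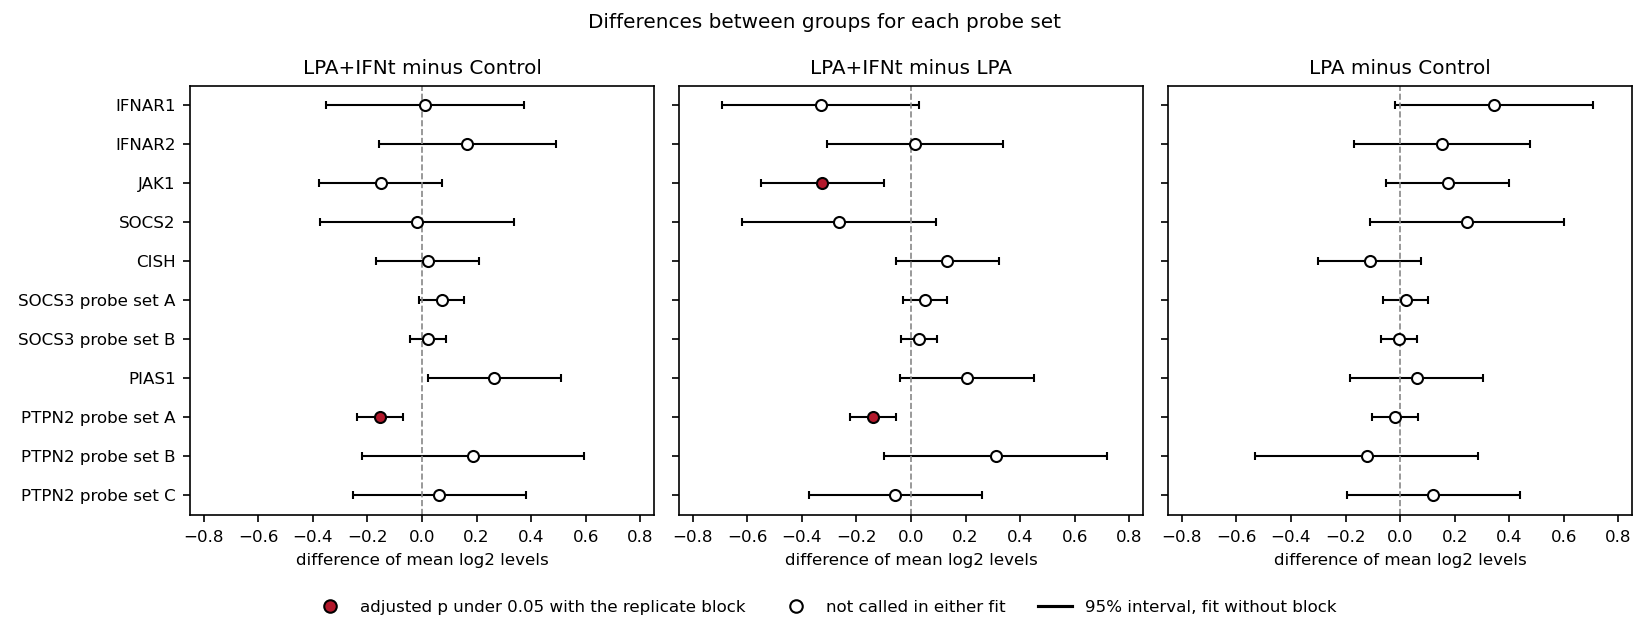
Difference of mean log2 levels for each of the 11 probe sets in LPA+IFNt against control (left), LPA+IFNt against LPA (middle) and LPA against control (right), with lines for the 95% interval of the fit without the block. SOCS3 lay under array background. Filled points had an adjusted p under 0.05 with the replicate block; they are PTPN2 probe set A at -0.16 and -0.14, and JAK1 at -0.33.

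Single arrays stood out across several of the 9 probe sets above background. LPA replicate 3 was the highest array for 4 of the 9 (IFNAR1, IFNAR2, JAK1 and SOCS2), and no control array was the highest for any. Within groups, replicate 3 lay above its group mean for IFNAR1, IFNAR2 and SOCS2 in all 3 groups, by 0.09 to 0.33, 0.12 to 0.26 and 0.04 to 0.30. It lay below its group mean in all 3 groups for PTPN2 probe sets A and C. Those deviations were -0.05 to -0.0035 for A and -0.28 to -0.01 for C, and the other probe sets had mixed signs. Among these 9, the difference within pairs of equal number had 1 sign in all 3 pairs for 2 higher and 2 lower in LPA+IFNt against control (25.6% and 20.9% of all probe sets), for 2 higher and 4 lower in LPA+IFNt against LPA (36.1% and 20.5%), and for 2 higher and 1 lower in LPA against control (13% and 14.2%).

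Other genes of the pathway were called. Of 23 further genes of interferon and JAK-STAT signalling that the array named, out of 43 listed, 4 were higher in LPA+IFNt against control and 0 lower, 3 were higher against LPA and 0 lower and 0 were called in LPA against control (limma, 0 also with the block). With the block 4 were higher and 1 lower against LPA, the added ones being OSMR and IFNGR2. By the brightest probe set of each gene, 3.43% of all 9155 genes were called higher and 3.13% lower in LPA+IFNt against control, 3.75% higher and 4.16% lower against LPA, and 0.12% either way in LPA against control. The median difference of the 23 genes from control was 0.02 with LPA+IFNt. Of the 23, 17 had a mean over the arrays above the trp value, and the rest lay at array background. TYK2, JAK2, JAK3, STAT5A, SOCS1 and the gp130 gene IL6ST were among the 20 listed genes that no probe set named alone, so they were not analysed here.

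Among the 6 further brakes measured, USP18 was the 1 that rose. Its brightest probe set stood at 12.12, 12.51 and 12.13 with LPA+IFNt, at 6.55, 6.89 and 6.92 with LPA and at 6.50, 6.82 and 6.75 in control, so no array with IFNt came near any array without it. That is a fold of 47.2 over control (95% interval 37.2 to 59.8, limma adjusted p = 4.1e-07) and 44.1 over LPA, and all 4 USP18 probe sets were called in both comparisons. For 3 of them the log2 difference from control was 5.56 to 7.80, and the dimmest lay under the trp value on every array without IFNt, so no size is given for it. The other 5 brakes were not called in any comparison: in LPA+IFNt against control the log2 difference by the brightest probe set was 0.09 for SOCS5, 0.07 for the phosphatase gene PTPN1, 0.04 for PIAS3, -0.003 for PTPN6 and -0.09 for SOCS4.

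Of the STAT genes and IRF9, 2 of 6 measured rose with LPA+IFNt. STAT2 stood at 8.55, 8.28 and 8.67 with LPA+IFNt, at 6.05, 5.87 and 6.15 with LPA and at 6.00, 6.11 and 6.03 in control, a fold of 5.48 over control (95% interval 4.60 to 6.52, limma adjusted p = 9.02e-06). IRF9, the DNA-binding partner of STAT2, stood at 8.99, 8.59 and 8.94 with LPA+IFNt, at 6.63, 6.35 and 6.17 with LPA and at 6.59, 6.08 and 6.03 in control, a fold of 6.10 (4.50 to 8.26, adjusted p = 0.000179). For both genes the lowest LPA+IFNt array lay far above the highest of the 6 others. STAT3 (-0.15), STAT4 (0.13), STAT5B (0.16) and STAT6 (-0.06) were not called; the level of STAT5B lay under the trp value on average.

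Of 9 measured receptor chains for other cytokines, OSMR, the oncostatin M receptor, was the 1 called over control by the brightest probe set. Only 4 of the 9, OSMR among them, had a mean over the arrays above the trp value, so the rest were not measured above background. Its brightest probe set stood at 10.09, 9.92 and 10.54 with LPA+IFNt, at 9.48, 9.14 and 9.67 with LPA and at 9.08, 9.01 and 9.19 in control, with the groups apart except for LPA and control. OSMR rose by 1.09 on the log2 scale over control (fold 2.13, 95% interval 1.59 to 2.85, limma adjusted p = 0.0131), and it missed the threshold without control replicate 1 (adjusted p = 0.0514) or control replicate 2 (0.0578). Over LPA the difference was 0.75 (adjusted p = 0.0534, or 0.00928 with the block). Of its 4 probe sets, 2 were called over control, at 1.09 and 1.17, and the other 2 were not. The probe set at 1.17 was 0.47 over LPA, not called (limma adjusted p = 0.229, or 0.128 with the block). With LPA alone that probe set was 0.70 over control, not called (adjusted p = 0.291). No OSMR probe set was called over LPA without the block. IL4R had a log2 difference of 0.002 from control, not called. The 2 probe sets of IL13RA1 had log2 differences of opposite sign, -0.13 and 0.39 from control (neither called) and -0.16 and 0.43 from LPA, where the second, dimmer one was called (adjusted p = 0.0443) and was not with the block (0.0609).

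**Figure D3:**
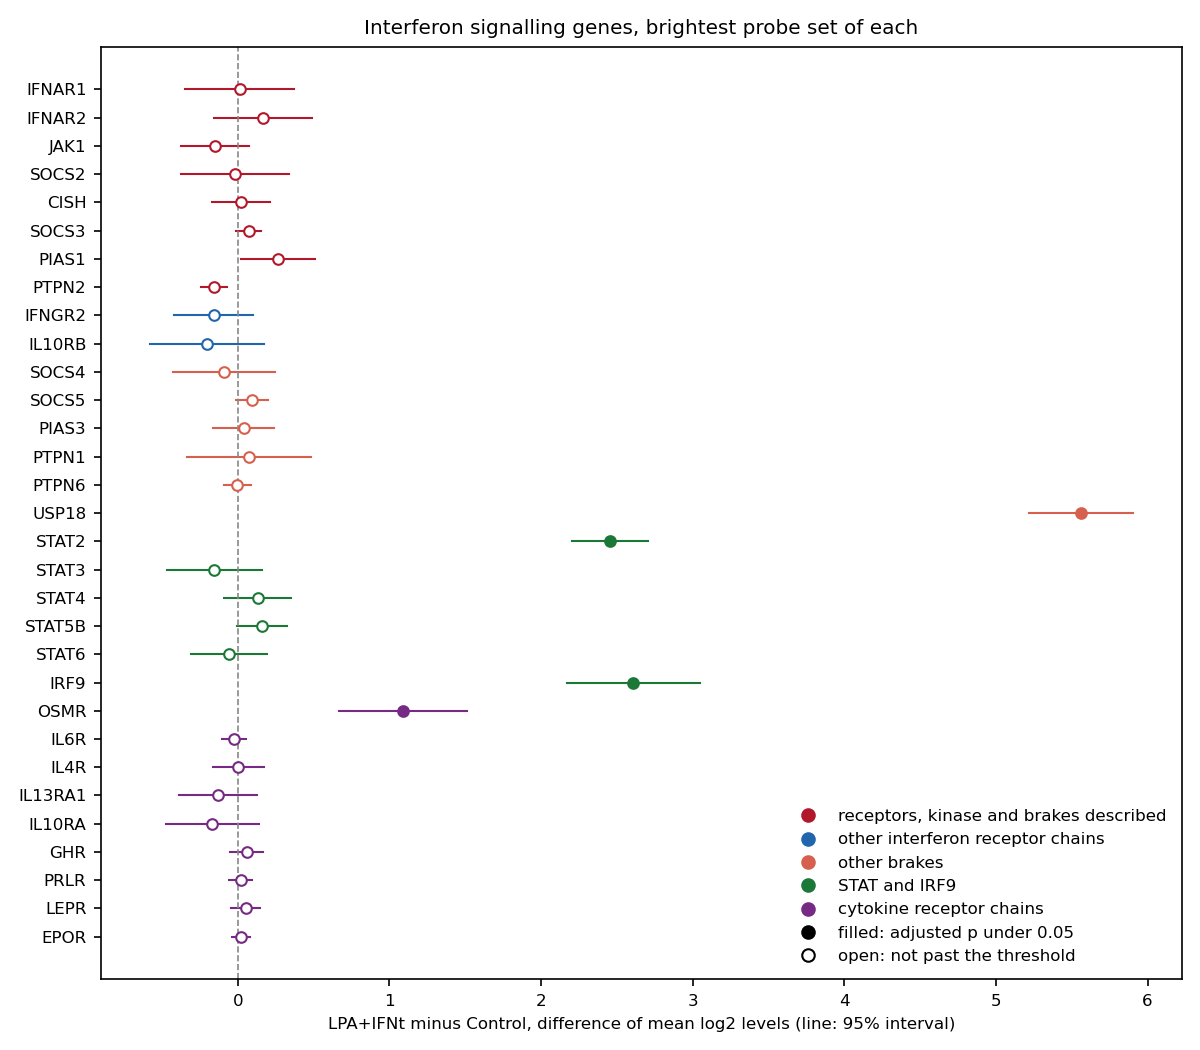
LPA+IFNt minus control on the log2 scale for the 8 genes described and the 23 further pathway genes, each by its brightest probe set, with 95% intervals; colours mark the roles and filled points had an adjusted p under 0.05. The 4 filled points are USP18 at 5.56, IRF9 at 2.61, STAT2 at 2.45 and OSMR at 1.09, and the receptor, kinase and brake genes described all lie between -0.16 and 0.27. SOCS3 lay under array background, and 17 of the 23 further genes had a mean above it.

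**Figure D4:**
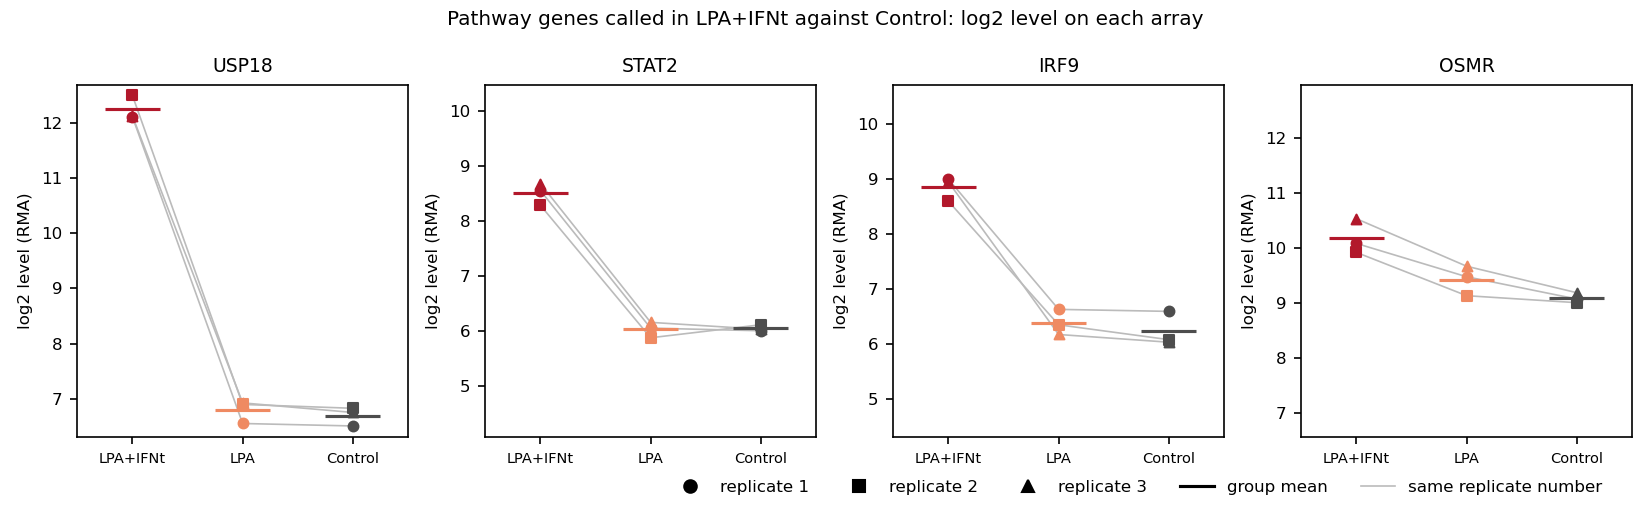
Log2 levels on each array for the 4 pathway genes called in LPA+IFNt against control, with LPA+IFNt left, LPA in the middle and control right; symbols are replicate numbers, thick bars group means and grey lines join arrays of equal number. All LPA+IFNt arrays lie above all others for USP18, STAT2, IRF9 and OSMR.

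No gene of the 8 passed limma's F test over the 3 groups without the block, where 5.99% of all probe sets did, and PTPN2 by probe set A came nearest (adjusted p = 0.0761). It passed with the block (adjusted p = 0.0496), as did 9.48% of all probe sets. Likeness was therefore read for PTPN2 probe set A. Over the 9 arrays, and among 7029 other genes above background, the levels most like it were those of RENBP (Pearson r = 0.970), RNF34 (0.969) and RRM1 (0.968), the last being the gene of the large subunit of ribonucleotide reductase. The arrays share treatment groups and pools, so these values are a description of the pattern over 9 arrays.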

How the data were processed

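Pooled RNA of 9 co-cultures was measured on 1 Affymetrix bovine array each. The deposited values are log2 expression per probe set, made by the authors by RMA with Partek software, as named in the submitters' processing notes. No version is stated there, the log base was read from what RMA normally returns, and quantile normalization (array medians 4.30 to 4.38) hides a change shared by most transcripts. No scanner files or detection calls were used. No genome build is given with the deposited values. The RefSeq table (ARS-UCD2.0) served for gene symbols and gene order, and no coordinates are given.

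Of 24128 probe sets 112 Affymetrix controls were left out. Among the rest 13292 had 1 gene symbol, 86 had several and 10638 had none; 13263 symbols were found through gene identifiers in the RefSeq table (ARS-UCD2.0) and 0 changed. limma 3.58.1 in R 4.3.3 (lmFit, eBayes, two-sided) was fitted to all 9 arrays without a covariate, and p-values were adjusted by Benjamini-Hochberg over 24016 probe sets. Intervals are 95% intervals of that model. The fit was tested on simulated data with independent arrays, so not under a shift shared by arrays of equal number.

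The labels state no pairing by replicate number, and the pairing was read from these data. Deviations from group means correlated with r of 0.190 to 0.491 in all 9 pairs of equal number (-0.468 to 0.141 in the 18 others). Deviations within a group cancel out, so the 18 are not independent of the 9. Values with the number as a block are given where they change a call of a gene the text names or a count of markers. Without the block, p-values rest on the spread between arrays within groups, each array being a pool. With the block, they rest on the spread left once the shift shared by arrays of equal number is removed. Pools may share cows, so neither spread is known to be that of independent animals. Every probe set of the 8 genes is named, further pathway genes by the brightest probe set, up to 4 past the threshold per role or the 2 with the smallest p, while the uncalled genes of the brake, STAT and cytokine receptor roles that are named were chosen after their values were seen. The genes and lists were chosen with earlier results of these data known. Alternatives were the block, each array left out, a filter on dim probe sets, spike-in centring (9 hybridisation controls), averaged probe sets, 2 groups only, a variance trend with robust moderation, and no moderation. No sequences of these genes were at hand, so the motif search planned for them was not run.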

Additional observations from a re-analysis of the deposited data

How the results depend on the processing

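With 8 genes and 9 arrays the limits are the number of pools, cows that pools may share, and array background. No value of the 11 probe sets was called in LPA against control under any of 16 alternatives (174 values, lowest adjusted p = 0.152). In LPA+IFNt against control 2 of 174 were called, PTPN2 probe set A with the replicate block (-0.16, adjusted p = 0.0356) and without LPA replicate 1 (0.0345). In LPA+IFNt against LPA 3 of 174 were called: JAK1 with the block (-0.33, 0.0455) and without LPA replicate 2 (-0.43, 0.0148), and PTPN2 probe set A with the block (-0.14, 0.0464). The block changed no other call of the 8 genes. The sign of an uncalled value changed in 10, 5 and 10 of the 174 values in LPA+IFNt against control, LPA+IFNt against LPA and LPA against control. The fits with the block on 8 arrays, those with block and spike-in centring, and all alternatives for the pathway genes were chosen after seeing the data. USP18, STAT2 and IRF9 stayed called in LPA+IFNt against both other groups under all 16 alternatives, and OSMR against control under 13 and against LPA under 4. IL4R was called lower in LPA+IFNt against LPA without control replicate 3 (-0.19, adjusted p = 0.0195) and with the 2 groups only (0.0458).

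Counts of called probe sets moved more. Called were 1282 in LPA+IFNt against control, 1571 in LPA+IFNt against LPA, 17 in LPA against control and 1439 by the F test. With the replicate block they were 2085, 2320, 11 and 2276. With 1 array left out in turn they ranged from 791 (without control replicate 2) to 1352, from 954 (without LPA replicate 1) to 2204, from 0 to 169 (without LPA replicate 2) and from 911 (without LPA+IFNt replicate 1) to 1997; the F test gave 933 without LPA+IFNt replicate 3. By limma, LPA against control had 0 when control replicate 2 was left out (unadjusted p under 0.05 for 1520) and 0 when LPA replicate 1 was (1739). It had 8 and 28 when control replicate 1 and control replicate 3 were left out, and 11 when either LPA+IFNt replicate 1 or LPA+IFNt replicate 3 was. Averaged probe sets, which leave 9155 features, gave 630, 756, 31 and 706, and no variance moderation gave 788, 901, 0 (1476 at an unadjusted p under 0.05) and 783. With the 2 groups only, 1004 were called in LPA+IFNt against LPA and 1 in LPA against control. LPA against control had 37 with the dim filter, 50 with spike-in centring and 50 with the variance trend. Apart from the fewer features or arrays of some settings, the cause was not tested. After spike-in centring, the median log2 difference over all probe sets was 0.08, 0.05 and 0.04 in LPA+IFNt against control, LPA+IFNt against LPA and LPA against control.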
